A study of Mus musculus with 7 samples.

Results

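The genes described here encode the Wnt ligands, the receptors and co-receptors that bind them, the R-spondins and their Lgr receptors, the secreted inhibitors of Wnt signaling and the target gene Axin2. They were chosen by gene name from the array annotation (the Wnt, Fzd, Sfrp, Dkk and Rspo families, without 1 Wnt gene that is not reported here, plus Lrp5, Lrp6, Lgr4, Lgr5, Lgr6, Ror1, Ror2, Wif1, Znrf3, Rnf43 and Axin2), with no use of their values. This gave 51 genes and 78 probes of the 56605 probes and 37074 gene names on the array, and the current RefSeq table lists all 51 symbols. The arrays held mammary glands of 4 PRA transgenic and 3 wild-type animals, 1 animal each. All were nulliparous FVB females of 20 to 25 weeks at diestrus, and from each a single abdominal gland was taken after its lymph nodes had been removed. PRA transgenics carry 2 transgenes, GAL-4 under the cytomegalovirus promoter and the A form of the progesterone receptor (PR) behind GAL-4-binding sites (UAS), so the extra receptor is not restricted to the mammary epithelium by its promoter. Gland RNA was labeled with Cy5 and a common reference, Universal Mouse Reference RNA from 11 cell lines, with Cy3. Values are log2 ratios of gland over reference unless said otherwise, and each fold change is PRA transgenic against wild-type.

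Wnt proteins are secreted lipid-modified ligands that bind Frizzled receptors. Together with the co-receptors Lrp5 and Lrp6 they stabilize beta-catenin, which then acts with TCF/LEF factors on target genes, whereas Ror1 and Ror2 are co-receptors of pathways that do not need beta-catenin. R-spondins, through Lgr4, Lgr5 and Lgr6, keep the E3 ligases Znrf3 and Rnf43 from removing Frizzled receptors from the cell surface. In the mammary gland, progesterone acts on PR-positive luminal cells, and paracrine signals of this family, R-spondin 1 among them, carry its effect to other cells.

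In the Cy5 channel 62.7% to 66.2% of probes were well above background on the wild-type arrays and 56.7% to 60.2% on the PRA transgenic arrays. The Cy3 reference, which is the same RNA on every array, ranged from 53.2% to 54% and from 47.2% to 50.6%. All arrays lay on 1 slide, wild-type in row 1 and PRA transgenic in row 2, so an effect of slide row cannot be told apart from genotype. As for the tissue, the mean log2 ratio of 13 luminal markers was 3.04 to 3.72 over the arrays, that of 9 basal markers 2.55 to 3.01 and that of 8 white adipocyte markers 5.55 to 6.25, with genotypes that overlapped for each list. Skeletal muscle markers (7 of 8 measured) reached 2.24 in wild-type replicate 1, 3.24 in wild-type replicate 3 and 3.02 in PRA transgenic replicate 4, and lay between -0.35 and 0.05 on the other arrays. T cell markers (7 of 7) stood at 2.05 in wild-type replicate 1 and between -0.25 and 0.41 elsewhere. B cell markers (4 of 5 measured) were also highest on that array, at 0.76, and lay between -1.62 and -0.78 elsewhere. In these whole glands, fewer cells of a type and less RNA per cell cannot be told apart.

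A gland signal well above background throughout at least 1 genotype was required, which 53 of the 78 probes met, and 38 of the 51 genes could be tested. Fzd10, Fzd6, Fzd7 and Ror1 were lower in PRA transgenic glands, by 1.98-, 1.55-, 1.51- and 1.85-fold. These receptor genes were the only ones of the 38 with at least a 1.5-fold change and P under 0.05 (limma, unadjusted), and no gene was called higher. The share called was 10.5% of the genes tested, against 4.06% of all 22503 genes tested by the same rule in either direction and 2.55% in the lower direction. Counted by probe, 4 of the 53 were called, against 4.53% of all probes. None of the calls held at an adjusted p under 0.05 (limma, Benjamini-Hochberg over all probes), which 0.0117% of all probes reached, whereas 6 of the 38 genes were below 0.05 before adjustment. The t-test of the study's methods found no gene after adjustment and 3 before it. Over the 38 genes 20 were lower and 18 higher, with a median log2 fold change of -0.12, where the median of all genes was 0.01 and 10640 of 22503 were lower. The genotypes did not overlap for 3 of the genes that could be compared (Fzd10 lower, Fzd3 and Wnt1 higher), or 7.89%, against 9.11% of all genes.

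Of the genes called lower before adjustment, Fzd10, Fzd7 and Ror1 have a promoter in the RefSeq table. The 250 bases before the start of each are shown, 5′ to 3′, as the regions in front of called genes. Capitals mark matches, on either strand, to 4 short motifs: the core of TCF/LEF sites (CTTTGA), the half-site of progesterone and glucocorticoid response elements (TGTTCT), the GC box (GGGCGG) and the TATA box (TATAAA). All lie on the plus strand of GRCm38.p6.
Fzd10 (chr5:128600856-128601105): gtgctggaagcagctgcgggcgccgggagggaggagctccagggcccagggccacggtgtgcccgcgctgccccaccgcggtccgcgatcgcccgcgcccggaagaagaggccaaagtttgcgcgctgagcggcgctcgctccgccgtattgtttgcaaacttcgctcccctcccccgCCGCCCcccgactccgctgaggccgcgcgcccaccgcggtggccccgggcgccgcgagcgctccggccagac
Fzd7 (chr1:59481897-59482146): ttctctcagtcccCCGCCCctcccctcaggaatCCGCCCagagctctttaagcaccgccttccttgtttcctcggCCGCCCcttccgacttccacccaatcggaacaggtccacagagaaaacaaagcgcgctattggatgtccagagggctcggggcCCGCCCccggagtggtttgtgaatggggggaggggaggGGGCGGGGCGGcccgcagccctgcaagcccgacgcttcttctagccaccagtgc
Ror1 (chr4:100095541-100095790): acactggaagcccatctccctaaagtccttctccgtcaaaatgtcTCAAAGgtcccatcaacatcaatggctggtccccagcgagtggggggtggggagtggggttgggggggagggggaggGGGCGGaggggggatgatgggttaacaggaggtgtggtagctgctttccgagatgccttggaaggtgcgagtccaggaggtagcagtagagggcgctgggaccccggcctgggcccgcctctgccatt
GC boxes were the main match, with 6 in Fzd7 (the last 2 share a base), 1 in Fzd10 and 1 in Ror1. Ror1 also held 1 TCF/LEF core (TCAAAG on this strand), 205 bases before the start. Neither the hormone response half-site nor the TATA box was found in these windows. Windows of this length hold GGGCGG in 32.7% of 32851 RefSeq promoters, CTTTGA in 13.8%, TGTTCT in 16.1% and TATAAA in 12.4%. Among the 37 promoters of 33 of the 51 genes described here the shares were 67.6%, 13.5%, 13.5% and 13.5%. GC content was 76.4%, 65.2% and 62.4% in Fzd10, Fzd7 and Ror1, with a median of 66.8% over those 37 promoters and of 52.4% over all. These matches are of letters only, and binding was not measured.

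Among the Frizzled receptors 9 of 10 genes were tested, of which 3 were called lower, and the median log2 fold change of the 9 was 0.02. Fzd10 (probe at chr5:129109798-129109857 of mm9, plus strand) read 5.00, 3.77 and 4.17 in wild-type replicates 1, 2 and 3, and 3.14, 3.40, 3.39 and 3.39 in PRA transgenic replicates 1 to 4. Every wild-type value lay above every PRA transgenic value. The log2 fold change was -0.98 ± 0.28 (SE) with an adjusted p of 0.417 in limma. The reference signal of this probe was not well above background on any of the 7 arrays, so each ratio depends on a dim Cy3 value. In the Cy5 channel alone, as log2 signal minus the 75th percentile of each array, wild-type arrays read -1.0, -2.27 and -1.83 and PRA transgenic arrays -2.10, -2.21, -1.98 and -2.14. Here the genotypes overlapped and differed by -0.41 (limma, adjusted p = 0.721), whereas Cy3 of this probe was 0.58 higher on the PRA transgenic arrays. Such a rise was not particular to Fzd10. Cy3 of a Dkk4 probe, above background on no array, read -6.46 to -6.39 in wild-type and -5.84 to -5.48 in PRA transgenics. For Wnt3a it read -6.31 to -6.24 and -5.76 to -5.38. Dim Cy3 values of Wnt7a and Fzd5 went the other way. A rise in Cy3 by itself lowers the ratio of a probe whose Cy5 is well above background.

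Fzd6 (chr15:38869107-38869166 of mm9, plus strand), a receptor known for its part in planar cell polarity, read 0.24, -0.21 and 0.73 in wild-type and -0.77, -0.33, -0.15 and -0.26 in PRA transgenic glands. The ranges overlapped through wild-type replicate 2. The log2 fold change was -0.63 ± 0.25 (SE), with an adjusted p of 0.530 in limma. Cy3 was well above background on 7 of 7 arrays and differed by only -0.04 between genotypes, and Cy5 alone gave -0.69 (limma, adjusted p = 0.415). In Cy5 alone the genotypes did not overlap, with -0.9, -1.37 and -0.73 in wild-type and -1.98, -1.6, -1.62 and -1.52 in PRA transgenic glands. Fzd7 (chr1:59543192-59543251 of mm9, plus strand), which in the mammary gland has been used to mark basal cells, read 0.32, 0.66 and 0.94 against -0.41, 0.36, -0.10 and 0.35. PRA transgenic replicates 2 and 4 lay just above the lowest wild-type value. With a log2 fold change of -0.59 ± 0.24 (SE) and an adjusted p of 0.539 (limma), Fzd7 was just inside the 1.5-fold limit. Its Cy3 was above background on 7 of 7 arrays, and Cy5 alone gave -0.47 (limma, adjusted p = 0.644), with genotypes that overlapped.

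Fzd3, another receptor known from planar cell polarity, went the other way. It read 1.04, 1.06 and 1.08 in wild-type and 1.64, 1.54, 1.45 and 1.60 in PRA transgenic glands. The genotypes did not overlap and the log2 fold change was 0.50 ± 0.11 (SE), with an adjusted p of 0.340 in limma, but at 1.41-fold it stayed just outside the fold limit. In Cy5 alone the genotypes differed by 0.03. The difference in the ratio went with a Cy3 signal that was 0.46 lower on the PRA transgenic arrays. That Cy3 signal was well above background on all 3 wild-type arrays but only on replicate 3 of the 4 PRA transgenic arrays. Fzd1, a receptor acting through beta-catenin and chosen after its values were seen, differed by -0.46 (limma, adjusted p = 0.608), with Cy5 alone at -0.46. The other 4 tested Frizzled genes, Fzd2, Fzd4, Fzd5 and Fzd8, had log2 fold changes from 0.02 to 0.36, none called, and for Fzd4 and Fzd5 a further probe was below 0 (-0.20 and -0.12). Fzd4, the receptor of norrin in vessels, also chosen after its values were seen, was above the reference on all arrays, from 4.12 to 5.12, and Fzd2 was below it on all, from -1.54 to -1.13. Fzd9 was above background on 2 wild-type and 3 PRA transgenic arrays and was not tested.

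**Figure D1:**
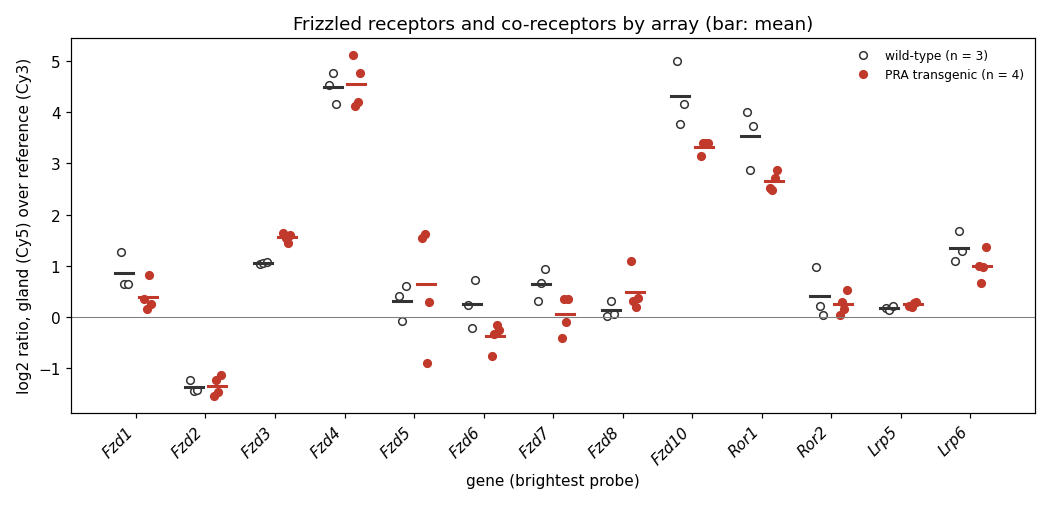
Log2 ratio of gland (Cy5) over reference (Cy3) for the 9 Frizzled receptors and 4 co-receptors tested, by the brightest probe of each gene; open circles are the 3 wild-type arrays, filled circles the 4 PRA transgenic arrays and bars the means. Fzd10 is lower and Fzd3 higher in all PRA transgenic arrays, while Fzd6, Fzd7 and Ror1 have lower means with ranges that overlap.

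All 4 co-receptors were tested. Ror1 (chr4:100115077-100115136 of mm9, plus strand), a receptor tyrosine kinase that binds Wnt5a, read 4.00, 2.87 and 3.74 in wild-type and 2.52, 2.48, 2.72 and 2.88 in PRA transgenic glands. The ranges met at wild-type replicate 2 and PRA transgenic replicate 4, which differed by 0.01. The log2 fold change was -0.89 ± 0.27 (SE), with an adjusted p of 0.441 in limma. The study drew Ror1 from the same arrays, so its direction here is not independent evidence. Cy3 was well above background on 1 of the 7 arrays and 0.67 higher in PRA transgenics, and Cy5 alone gave -0.22 (limma, adjusted p = 0.912) with overlapping values from -1.84 to -0.14. Its relative Ror2 differed by -0.16 (limma, adjusted p = 0.894). Lrp5, the first of the beta-catenin co-receptors, read 0.14 to 0.22 in wild-type and 0.19 to 0.30 in PRA transgenic glands, a difference of 0.06. Its other kept probe read between -0.28 and 0.07 on 6 arrays and -3.23 in wild-type replicate 3, which gave a difference of 1.08 (limma, adjusted p = 0.719). On that array Cy3 of this probe stood at 1.79 and elsewhere between -1.71 and -1.33, while Cy5 (-1.45) was within the range of the rest. In Cy5 alone the difference was -0.14. The paralog Lrp6 differed by -0.35 (limma, adjusted p = 0.680), with wild-type values of 1.1, 1.68 and 1.28 and PRA transgenic values of 1.0, 0.67, 0.98 and 1.37. The other probe of Lrp6 went the opposite way, by 0.29 (limma, adjusted p = 0.725).

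The 4 calls did not rest equally on all arrays and settings. Fzd10 and Ror1 stayed called when any 1 of the 7 arrays was left out, whereas Fzd6 was lost in 5 of the 7 (it stayed called without wild-type replicate 2 and without PRA transgenic replicate 3) and Fzd7 in 4 (it stayed called without wild-type replicate 1, PRA transgenic replicate 2 and PRA transgenic replicate 4). Fzd10 was -0.64 without wild-type replicate 1 and Fzd6 -0.39 without wild-type replicate 3. Sfrp5 was called higher (0.64) without wild-type replicate 2, and Sfrp2 (-0.81) lower without PRA transgenic replicate 4, as was Fzd1 without PRA transgenic replicate 3. Without the 3 arrays with high muscle markers, which left 1 wild-type array that was assumed to vary like the others, the log2 fold changes were -0.46 for Fzd10, -0.21 for Fzd6, -0.71 for Fzd7 and -0.30 for Ror1, and none was called. In Cy5 alone 2 genes of the 38 were called lower, Fzd6 and the ligand Wnt9b, against 2.01% of all genes in that direction. Wnt9b had passed the filter through wild-type alone, and its bound, given with the ligands, is below 1.5-fold. After another background correction (normexp and loess) the values were -0.27, -0.46, -0.53 and -0.43 in the same order, and none was called. All 4 genes were below 0 in every setting that could test them. The series table, no filter, both channels above background, the methods' t-test and the trend return the same fold change by construction. In those settings the sign was fixed in advance. What part the muscle content or the reference channel had in these differences was not tested.

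**Figure D2:**
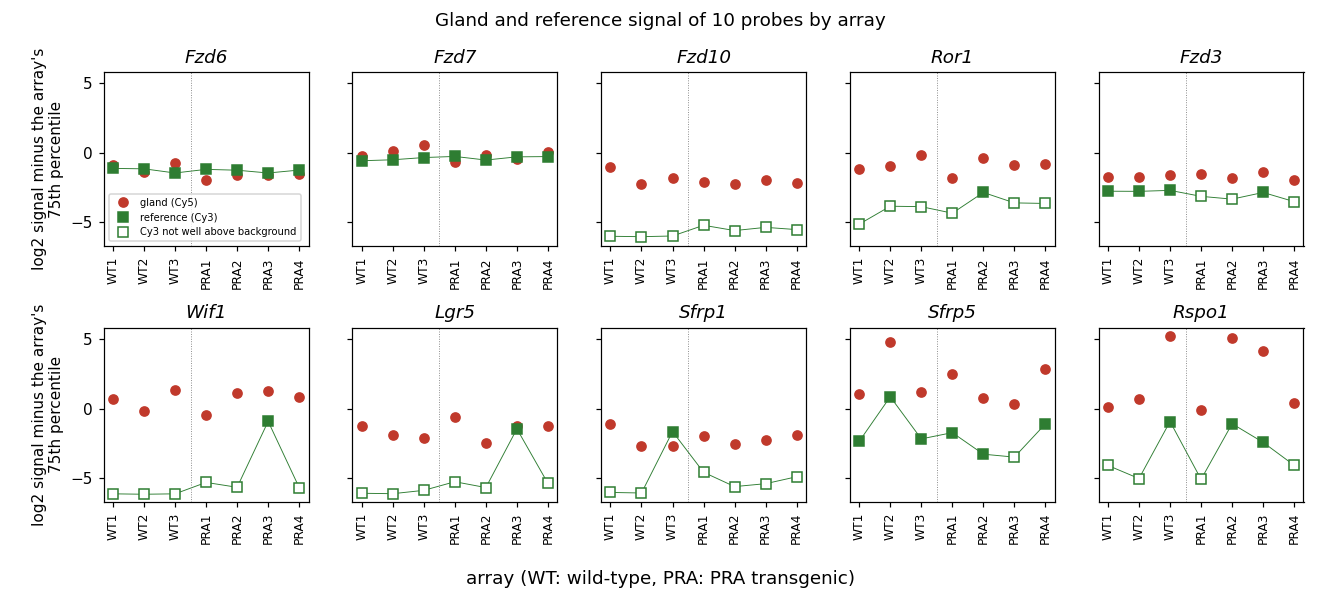
Gland (Cy5, red circles) and reference (Cy3, green squares, open where not well above background) signals on the 7 arrays, as log2 signal minus the 75th percentile of each array, for the brightest probes of 10 genes. Cy3 is flat for Fzd6 and Fzd7, below background for Fzd10, and on single arrays rises by several log2 units for Wif1, Lgr5 and Sfrp1 while Cy5 does not follow.

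Of the ligands, 11 of 18 genes were tested and none was called, with 6 higher and 5 lower. The widest difference was that of Wnt9b, a ligand best known from kidney development, at -0.97 ± 0.51 (SE; limma, adjusted p = 0.631). It read 1.20, 0.29 and 2.07 in wild-type and 0.84, 0.83, -0.44 and -0.37 in PRA transgenic glands. Its Cy5 was well above background on 3 of 3 wild-type arrays and on none of the 4 PRA transgenic arrays, so its level there is only bounded. With the dimmest signal well above background on each array taken as the limit, it was 1.15-fold lower in PRA transgenics, a rough bound that was not tested. In Cy5 alone wild-type replicate 2, which was well above background, read -4.63. PRA transgenic replicate 1, which was not, read -4.45. The measured difference in Cy5 alone, -1.02 (limma, adjusted p = 0.517), uses PRA transgenic signals that were not well above background. Wnt9b was also kept through its wild-type signal alone, so this difference cannot give the size of the change. The ratio moved to -0.53 without wild-type replicate 3, to -1.42 (called) without wild-type replicate 2, to -0.07 after normexp and loess and to 0.12 without the arrays with high muscle markers.

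Wnt5a, the ligand of Ror2 and Ror1 that limits ductal growth in the mammary gland, was measured by 3 kept probes. Their log2 fold changes differed in sign in the ratio but not in Cy5 alone. The brightest read 2.09, 0.99 and 0.46 in wild-type and 1.35, 0.33, 0.58 and 0.89 in PRA transgenics. The difference was -0.39 ± 0.41 (SE; limma, adjusted p = 0.827). A further probe gave -0.38, and the probe whose position spans an intron (chr14:29331746-29335708 of mm9, plus strand) gave 0.52 (limma, adjusted p = 0.722). Wild-type replicate 1 was the highest of its genotype on all 3 probes. The intron-spanning probe is shown because its bases come from both sides of an intron, upstream of the others.
Wnt5a probe: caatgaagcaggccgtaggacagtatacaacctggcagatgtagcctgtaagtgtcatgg
Wnt5b read 4.15, 4.24 and 4.84 against 4.26, 5.20, 4.89 and 4.50, a difference of 0.30 (limma, adjusted p = 0.794), and its other probe gave 0.27. Wnt1, the ligand whose activation by proviral insertion causes mammary tumors, lay between -0.27 and -0.02 in wild-type and between -0.01 and 0.08 in PRA transgenic glands. Those ranges did not overlap, but the difference was 0.16 (limma, adjusted p = 0.735) and -0.01 in Cy5 alone.

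The ligands Wnt6, Wnt7b and Wnt10b, which are expressed in mammary epithelium or its precursors, had log2 fold changes of -0.14, 0.06 and 0.11 (limma adjusted p = 0.899, 0.982 and 0.934). Wnt2, a stromal ligand chosen here after its values were seen, was above the reference on all arrays (5.50 to 6.96), and its Cy3 was not above background on any, so the ratios rest on a dim reference. Wnt10a, also chosen after its values were seen, was below the reference on all arrays (-3.16 to -2.20). Their log2 fold changes were 0.10 and -0.12 (limma, adjusted p = 0.970 and 0.934). Wnt11 and Wnt9a differed by -0.12 and 0.07. Of the 7 ligands not tested, Wnt2b, Wnt3, Wnt3a, Wnt7a and Wnt8b were not well above background on any array, and Wnt16 was on 2 wild-type and 1 PRA transgenic arrays, as was Wnt8a.

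Rspo1, the only one of the 4 R-spondins that was tested, read 4.24, 5.76 and 6.19 in wild-type and 5.02, 6.16, 6.59 and 4.49 in PRA transgenic glands. The genotypes overlapped almost fully, with a log2 fold change of 0.17 ± 0.64 (SE) and a 95% interval from -1.34 to 1.68 (limma, adjusted p = 0.967). In Cy5 alone the arrays fell far apart within both genotypes. Wild-type replicate 3 (5.25) and PRA transgenic replicates 2 and 3 (5.05 and 4.15) were bright, and the other 4 arrays lay between -0.10 and 0.72. The Cy3 reference of this probe was also brightest on those 3 arrays (-0.93, -1.09 and -2.43, against -5.09 to -4.08), and well above background only there. The same 3 arrays held the highest ratios of Wnt5b (4.84, 5.20 and 4.89) and of the E3 ligase Rnf43 (1.84, 2.11 and 1.21), 1 of them wild-type and 2 PRA transgenic in each case. Mean luminal marker ratios on these arrays were 3.48, 3.51 and 3.04, against 3.10 to 3.72 on the other 4, so that PRA transgenic replicate 3 was the lowest of all. Of the other R-spondins, Rspo2, Rspo3 and Rspo4 were above background on at most 2 arrays of a genotype.

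Lgr5, a marker of stem cells in several epithelia, read 4.85, 4.24 and 3.75 against 4.64, 3.19, 0.23 and 4.13. Its log2 fold change of -1.23 ± 1.0 (SE; limma, adjusted p = 0.766) came from PRA transgenic replicate 3. On that array Cy3 stood at -1.46 and on the others between -6.12 and -5.26, while Cy5 (-1.24) was within the range of the rest. Without PRA transgenic replicate 3 the difference was -0.30, and in Cy5 alone it was 0.34. Lgr4 differed by -0.47 (limma, adjusted p = 0.688), a further probe of it by 0.02, and Lgr6 by 0.18 (limma, adjusted p = 0.939), with 0.73 for its other probe. Both depended on single arrays. Lgr4 was -0.71 and called lower without wild-type replicate 1 but -0.15 without wild-type replicate 3, and Lgr6 was 0.70 and called higher without wild-type replicate 3 but -0.15 without wild-type replicate 1. The E3 ligases Rnf43 and Znrf3 differed by 0.30 and 0.09 (limma adjusted p = 0.914 and 0.848), and Znrf3 stayed within -0.11 and 0.15 on all arrays.

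Of the secreted inhibitors, 7 of 9 were tested and none was called, with 2 higher and 5 lower. Sfrp5, a decoy that binds Wnt ligands and is made by adipocytes, read 3.42, 3.97 and 3.40 in wild-type and 4.27, 4.06, 3.84 and 4.00 in PRA transgenic glands. Only wild-type replicate 2 reached the PRA transgenic range. The difference was 0.45 ± 0.18 (SE; limma, adjusted p = 0.539), below the 1.5-fold limit. In Cy5 alone it was -0.73, since Cy5 and Cy3 moved together over the arrays, from 0.34 to 4.81 and from -3.49 to 0.85, and were both brightest in wild-type replicate 2.

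Wif1, which binds Wnt ligands outside the cell, read 6.85, 6.0 and 7.44 against 4.90, 6.80, 2.21 and 6.51. As for Lgr5, the low value was that of PRA transgenic replicate 3, where Cy3 stood at -0.92 and elsewhere between -6.16 and -5.31. The log2 fold change was -1.66 ± 1.08 (SE; limma, adjusted p = 0.702), -0.70 without that array and 0.08 in Cy5 alone. Sfrp1 read 4.95, 3.41 and -1.01 against 2.63, 3.09, 3.13 and 3.00, with Cy3 at -1.65 in wild-type replicate 3 and between -6.07 and -4.58 elsewhere. Its log2 fold change of 0.51 ± 1.26 (SE; limma, adjusted p = 0.944) turned to -1.22, and was called, when wild-type replicate 3 was left out. Sfrp2, a stromal inhibitor, read 1.86, 1.12 and 1.75 against 0.58, 1.02, 0.70 and 1.90, a difference of -0.53 (limma, adjusted p = 0.710). PRA transgenic replicate 4 alone lay above the wild-type range. Sfrp4, Dkk3 and Dkk2 differed by -0.27, -0.20 and -0.14, and Dkk1 and Dkk4 were above background on at most 1 array.

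**Figure D3:**
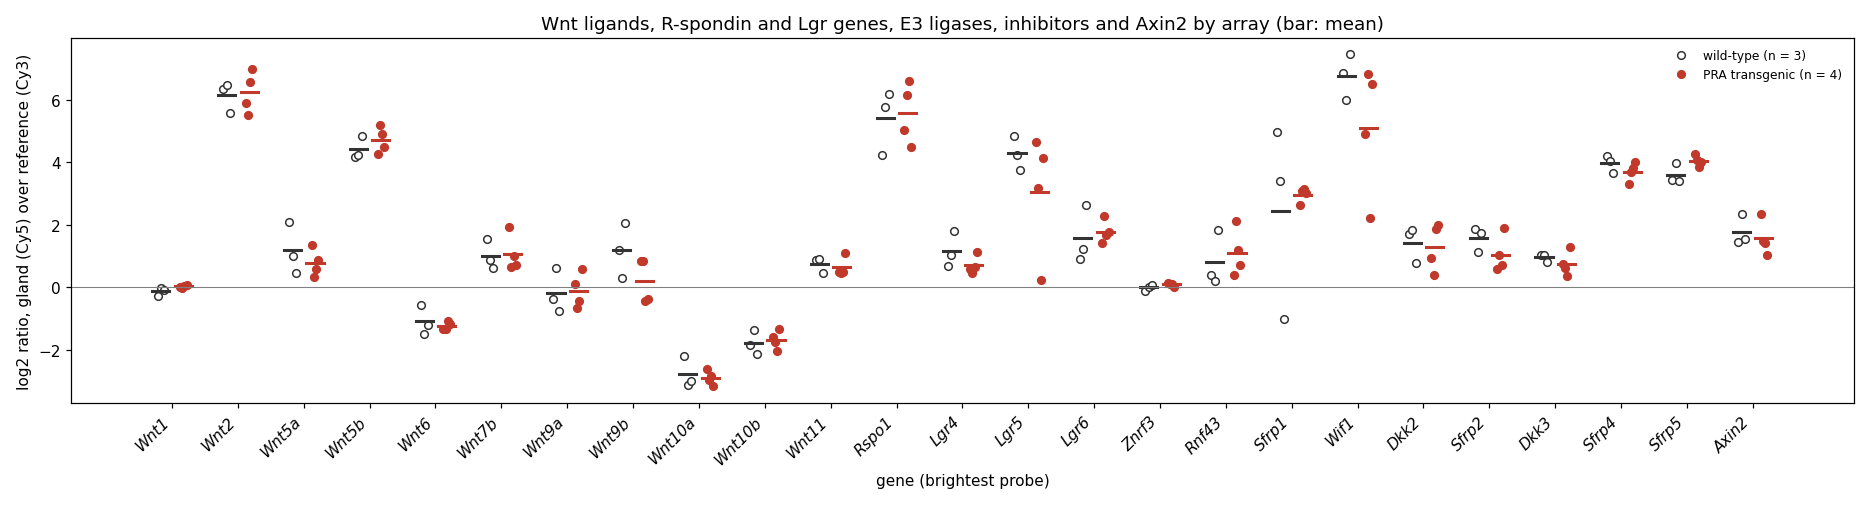
Log2 ratio of gland over reference for the ligands, R-spondin and Lgr genes, E3 ligases, secreted inhibitors and Axin2 that were tested, by the brightest probe of each gene; open circles are the 3 wild-type arrays, filled circles the 4 PRA transgenic arrays and bars the means. Single low values stand apart for Lgr5 and Wif1 (PRA transgenic replicate 3, 0.23 and 2.21) and for Sfrp1 (wild-type replicate 3, -1.01).

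Axin2, whose expression is a common readout of beta-catenin signaling, read 1.44, 2.36 and 1.55 in wild-type and 2.34, 1.47, 1.42 and 1.03 in PRA transgenic glands. Each genotype had 1 high array, and the difference was -0.22 ± 0.35 (SE; limma, adjusted p = 0.902), with an interval from -1.05 to 0.61. Its other kept probe gave 0.22 (limma, adjusted p = 0.836). In all, 13 genes had more than 1 kept probe, and for 7 of them the log2 fold changes of the probes differed in sign in the ratio.

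Both channels were well above background on all arrays for 24 of the 38 genes, so that gland and reference could be set against each other. The gland was above the reference on all 7 arrays for 15 of these (62.5%), against 30.9% of all genes measured as well, and below it on all for 4 (Wnt6, Wnt10a, Wnt10b and Fzd2).

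**Figure D4:**
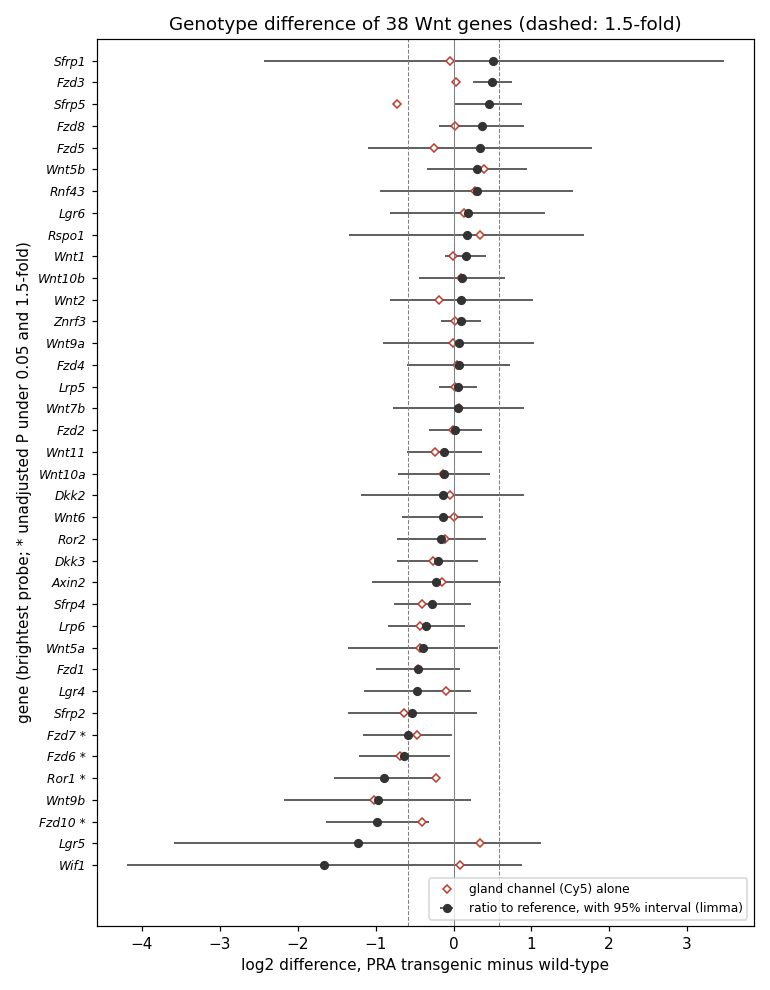
Log2 difference between PRA transgenic and wild-type arrays for the 38 genes tested, as the ratio to the reference with its 95% interval from limma (filled circles, lines) and in Cy5 alone (open diamonds); dashed lines mark 1.5-fold and asterisks the genes called. Fzd6 and Fzd7 lie close together on both scales (-0.63 and -0.69, -0.59 and -0.47), whereas Fzd10, Ror1, Fzd3, Sfrp5, Lgr5 and Wif1 do not.

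Other genes of the pathway were listed by role. Of 63 genes tested 47 were lower and 16 higher, with a median log2 fold change of -0.11. Of all genes tested, 47.3% were lower, against 74.6% here. None was called higher and 2 (3.17%) were called lower, against 2.55% of all genes, so the share called is near that of all genes. Pygo1, a cofactor of beta-catenin in the nucleus, read 0.94, 0.02 and 0.88 in wild-type and -0.56, -1.91, -0.47 and -1.28 in PRA transgenic glands. The genotypes did not overlap (limma, adjusted p = 0.382), but its Cy5 was well above background on the 3 wild-type arrays alone and its Cy3 on no array. It could pass the filter through wild-type only, and the dimmest signals above background on the PRA transgenic arrays set no bound, so no fold is given. Pygo1 was not called in Cy5 alone. Cd44, a cell surface receptor and Wnt target that the study also drew from these arrays, read -2.09, -1.79 and -2.60 against -2.95, -3.01, -2.83 and -2.53 (-0.67 ± 0.22, SE; limma, adjusted p = 0.462), and Cy5 alone gave -0.74. Only PRA transgenic replicate 4 reached the wild-type range. Sostdc1, a secreted inhibitor chosen after its values were seen, differed by 0.55 in the ratio (limma, adjusted p = 0.611) and by 1.13 in Cy5 alone (limma, adjusted p = 0.329), where it was called higher, with Cy3 above background on no array. By role, and beside 47.3% lower over all genes, 4 of 5 genes of Wnt secretion were lower, 10 of 16 of the destruction complex and Dishevelled, 9 of 12 nuclear effectors (Pygo1 called), 10 of 14 planar polarity genes and other receptors, 8 of 9 other extracellular modulators and 9 of 11 target genes (Cd44 called). Tcf7 and Lef1, which stand in both the nuclear and the target list and are also genes of T cells, were high in wild-type replicate 1 alone (-1.15 and -0.32, against -4.27 to -3.39 and -2.72 to -2.39 elsewhere), the array in which the T cell markers stood at 2.05. The part of T cells in these values was not tested. Beta-catenin itself (Ctnnb1) differed by -0.09 (limma, adjusted p = 0.875).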

How the data were processed

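Gland RNA (4 PRA transgenic, 3 wild-type animals) and the common reference were hybridized to 2-color Agilent arrays of 60-mer probes. The authors deposited the Agilent Feature Extraction (version 12.0, from the submitters' processing notes) output, whose processed intensity values were background-subtracted and dye-normalized, and a series table of log2 ratios, which the files show to be centered on the median of the 7 arrays (99.9% of values within 0.01). The direction follows the labels (Cy5 is the gland), with no dye swap. From the processed intensities log2(Cy5/Cy3) was averaged over the spots of a probe, after removal of controls and of spots marked as outliers (0.259%). No probe was saturated. Kept probes (34288) had a gland signal well above background throughout at least 1 genotype, and each gene was read by its brightest kept probe (Cy5).

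Genotypes were compared with limma 3.58.1 (lmFit, eBayes) under R 4.3.3, two-sided, with Benjamini-Hochberg adjustment over all kept probes and groups taken from the sample titles. A call needed an unadjusted P under 0.05 and a change of at least 1.5-fold. On simulated data of the 34288 probes, 78 of 100 probes changed by log2 1 and 99 of 100 changed by log2 2 were called, with 850 unchanged probes. The genes and lists were chosen with earlier results of these data known. The genes named are those called, the 4 largest differences of each role, and 12 fixed genes, besides those said to be chosen later. Replicate numbers were not treated as pairs, since same-numbered arrays did not deviate together (correlations of 0.10, -0.30 and 0.04). Precision is limited by how few arrays there are. Probe positions are those of the file annotation on mm9. Their place in exons and UTRs was not analysed here. Promoters come from RefSeq on GRCm38.p6, in Python 3.11.15. Alternatives were normexp with offset 50 and loess, the series table, no filter, both channels above background, quantile normalization, Cy5 alone, a trend, the methods' t-test, array weights, the replicate block, each array left out and the median over probes, and, chosen after seeing the data, leaving out 3 arrays with high muscle markers. Slide could not be a block, as there was 1.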

Additional observations from a re-analysis of the deposited data

Results flagged for a closer look

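In the 4 PRA transgenic arrays, 4 of 48 sets of values held an array whose gap to its nearest neighbor was nearly the whole range, where chance would give about 2.4. For Fzd10 the gap was 0.981 of the range and set apart replicate 1 (3.14, with the others at 3.39 to 3.40), so the whole range is small. For Wnt11 the gap was 0.946 and set apart replicate 4 (1.09, with the others at 0.47 to 0.50). The fibroblast markers (0.863; replicate 4 at 1.96, the others at 1.55 to 1.60) and the skeletal muscle markers (0.908; replicate 4 at 3.02, the others at -0.25 to 0.05) were also set apart by replicate 4. Sfrp2 was likewise highest in replicate 4 among the PRA transgenic arrays (1.90).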

How the results depend on the processing

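The count of 4 genes called fell to 0 after normexp and loess, to 2 with both channels required above background (Fzd6 and Fzd7, since Fzd10 and Ror1 were then not tested), to 2 in Cy5 alone, to 2 with the methods' t-test and to 2 with array weights (Fzd10 and Ror1 in both), and to 1 (Lrp6) without the 3 arrays with high muscle markers. Leaving out 1 array gave 2 to 5 genes, with 2 without PRA transgenic replicate 1. By probe the count of 4 became 0, 2, 2, 2, 2 and 1 in the same order, and 2 to 5 on leaving out 1 array. Quantile normalization kept the count at 4 but with 2 lower (Fzd10 and Ror1) and 2 higher (Fzd3 and Sfrp5). With the replicate block 5 genes were called (Sfrp2 added), 6 by probe, and 4 in the rest of the pathway; the numbers share no known origin. The 2 other pathway genes became 1 after normexp and loess (Sostdc1, higher), 1 with both channels required, 2 in Cy5 alone (Cd44 lower, Sostdc1 higher), 3 after quantile normalization (Sostdc1 higher), 5 without the muscle arrays and 1 to 4 on leaving out 1 array. Sfrp1 turned to -1.22 without wild-type replicate 3 and ranged up to 1.76, without wild-type replicate 1. Of the other values of single genes, 26 were no longer called, 10 became called and 15 moved by more than the replicate spread. Another 433 kept their call and were not counted as moved, of which 410 kept their sign, 17 changed it and 6 came to 0. That spread was not checked for genes that stayed called or for the median over probes. By that median Lrp5 went to 0.57 and Lrp6 to -0.03, and both are within the 433. Except where given above, the cause of these changes was not tested. The counts of 433 and 410 include the settings that return the same fold change by construction. Cy3 was well above background on no array for 5 of the 38 genes, Fzd10, Fzd5, Wnt2, Wnt9b and Dkk2. It was so on 1 array for Ror1, Wif1, Lgr5 and Sfrp1, on 3 for Rspo1 and on 4 for Fzd3. For Wnt11 it was so on 5 arrays, and for Sfrp5 and Fzd8 on 6. The median over all genes moved by at most 0.05 under any scaling.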
